A study of Mus musculus with 79 samples.

Results

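Alas2, Hba-a1 and Hbb-bt are 3 genes of the red cell lineage, and each was measured by 1 probe in the hippocampus and frontal cortex of mice whose brain ventricle had been infused with antisense oligonucleotides (ASO) or with phosphate-buffered saline (PBS). They were taken as all probes annotated to these 3 names, out of 12739 genes that had a probe with 1 symbol. Alas2 (gene ID 11656) encodes the erythroid form of 5-aminolevulinate synthase, which starts haem synthesis, and lies on chromosome X from 150547417 to 150570622 (build GRCm38.p6). Hba-a1 (gene ID 15122, chromosome 11, 32283672 to 32284486) encodes an alpha chain of adult haemoglobin, and Hbb-bt (gene ID 101488143, chromosome 7, 103812524 to 103813923) a beta chain. The probes of Hba-a1 and Hbb-bt may also bind RNA of near-identical copies of these genes in the same clusters, so the globin measured by each is not certain.

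Haemoglobin is built in the bone marrow from globin chains and haem, and the enzyme made from Alas2 sets the pace of haem synthesis in erythroid cells, whereas other cells use Alas1. Red cells lose their nucleus before they enter the blood, and the youngest of them, the reticulocytes, still carry globin and Alas2 mRNA. Brain tissue holds red cells within its vessels, and some neurons and glia have also been reported to make globin mRNA. The labels' protocol describes cervical dislocation and dissection and names no step that clears the vessels of blood. In these tissue samples, fewer cells of a type and less RNA per cell cannot be told apart.

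All animals were female. They were APP/PS1 mice, a line carrying 2 transgenes that forms amyloid plaques, or wild-type (WT) littermates. From 18 weeks of age APP/PS1 mice received an ASO against Cd33, a receptor of microglia and other myeloid cells, or a control ASO without a target, at 75 µg per day in 6 µL per day for 14 days through a cannula in the right lateral ventricle, and further APP/PS1 mice and all WT mice received PBS. Left-hemisphere tissue was taken at about 20.5 weeks of age, for most animals 17 days after surgery, and total RNA was hybridised to bead arrays. Some CD33 ASO animals were collected 13 days after surgery, fewer than the 14 days of infusion described for all animals. The hippocampus gave 11 WT PBS, 8 APP/PS1 PBS, 11 control ASO and 9 CD33 ASO arrays, and the cortex gave 11, 8, 11 and 10. The 79 arrays came from 40 animals, and 39 animals gave both tissues.

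The labels could be checked on 2 genes. The log2 difference of Cd33 between CD33 ASO and control ASO was -1.71 in the hippocampus (limma adjusted p = 1.08e-15) and -1.27 in the cortex (limma adjusted p = 7.24e-08). The cortical difference passed in 11 of 12 alternative fits, and did not pass without background correction (limma adjusted p = 0.262). Thy1, whose promoter cassette drives the transgenes in neurons of this line, was higher in APP/PS1 PBS than in WT PBS mice by 0.77 in the hippocampus and 0.71 in the cortex (limma adjusted p = 3.2e-07 and 1.51e-06). In at least 1 tissue it did not exceed the highest WT value in 4 animals labelled APP/PS1, all of them given an ASO, which gave 7 arrays. Between 13105 and 14446 of 25697 probes were detected on an array, and each tissue was run on 5 slides of its own with the groups unevenly spread over them.

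The 250 bases before the start of each gene are shown because the 3 transcripts varied together over the arrays, as described further on. The sequences are those of RefSeq in GRCm38.p6, written 5′ to 3′ on the strand of the gene, and capitals mark matches to GATAA (the core that erythroid GATA factors bind), CCACACCC (a KLF-type element), CCAAT, or TATAAA or ATAAAA. The first 3 were searched on both strands, so that TTATC and ATTGG are the other strand's GATAA and CCAAT, and TATAAA or ATAAAA on the gene's strand only. The windows are chrX:150547167-150547416 on the plus strand for Alas2, chr11:32283422-32283671 on the plus strand for Hba-a1 and chr7:103813924-103814173 on the minus strand for Hbb-bt.
Alas2: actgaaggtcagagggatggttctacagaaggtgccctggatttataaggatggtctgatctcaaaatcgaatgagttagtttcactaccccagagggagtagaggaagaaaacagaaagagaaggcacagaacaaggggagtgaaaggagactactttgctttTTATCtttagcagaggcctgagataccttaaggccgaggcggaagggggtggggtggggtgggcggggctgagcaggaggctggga
Hba-a1: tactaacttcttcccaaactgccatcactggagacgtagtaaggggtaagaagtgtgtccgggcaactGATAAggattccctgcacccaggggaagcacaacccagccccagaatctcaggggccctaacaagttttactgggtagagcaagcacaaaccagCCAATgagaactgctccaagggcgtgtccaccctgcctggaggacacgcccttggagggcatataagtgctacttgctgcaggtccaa
Hbb-bt: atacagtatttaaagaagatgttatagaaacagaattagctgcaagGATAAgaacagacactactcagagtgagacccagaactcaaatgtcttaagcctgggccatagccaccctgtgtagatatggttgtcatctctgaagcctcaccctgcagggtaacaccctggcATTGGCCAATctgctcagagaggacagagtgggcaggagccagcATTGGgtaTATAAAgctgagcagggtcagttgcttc
Each window held GATAA once, at 86 to 82 bases before the start in Alas2, 182 to 178 in Hba-a1 and 204 to 200 in Hbb-bt. Over all 32851 promoter windows of this length in the table, 22.6% held a GATAA. Hba-a1 had 1 CCAAT and Hbb-bt had 3, of which 2 lie side by side on opposite strands without overlap, and 33.8% of all windows held one. TATAAA stood in Hbb-bt alone among these 3 windows (14.2% of all windows held it or ATAAAA), and CCACACCC in 0 of the 3 (3.2% of all). A match is a run of letters and does not show that a factor binds there.

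Values are log2 signals after background correction and quantile scaling of all arrays together, each with the SD over the arrays of a group. The Alas2 probe passed detection on all arrays but 1, a hippocampal one with CD33 ASO, and both globin probes did so on every array. In the hippocampus, Alas2 gave 7.60 ± 0.714 (n = 11) in WT PBS, 7.38 ± 0.788 (n = 8) in APP/PS1 PBS, 6.13 ± 0.482 (n = 11) with control ASO and 5.90 ± 0.739 (n = 9) with CD33 ASO. The single arrays ran from 6.61 over a median of 7.42 to 9.42 in WT PBS and from 6.23 over 7.33 to 8.72 in APP/PS1 PBS. They ran from 5.36 over 6.27 to 6.72 with control ASO and from 4.81 over 5.94 to 6.98 with CD33 ASO. Both ASO groups lay low: 11 of 11 control ASO arrays and 9 of 9 CD33 ASO arrays were below the APP/PS1 PBS median, although the ranges overlapped.

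In the cortex, Alas2 gave 8.30 ± 0.675 (n = 11) in WT PBS, 8.08 ± 1.09 (n = 8) in APP/PS1 PBS, 6.60 ± 0.517 (n = 11) with control ASO and 6.62 ± 0.895 (n = 10) with CD33 ASO. Single arrays ran from 6.95 over a median of 8.09 to 9.36 in WT PBS, from 6.06 over 8.09 to 9.32 in APP/PS1 PBS, from 5.54 over 6.53 to 7.22 with control ASO and from 5.31 over 6.52 to 8.07 with CD33 ASO. All 11 control ASO and all 10 CD33 ASO arrays lay below the APP/PS1 PBS median. The ranges overlapped. The lowest APP/PS1 PBS array, at 6.06, was the only one of its group within the control ASO range, whereas with CD33 ASO further arrays of both groups lay among each other. In the order of the 8 group means, the 4 PBS groups (8.30 down to 7.38) came before the 4 ASO groups (6.62 down to 5.90), and the neighbours within each 4 were closer than 1 SD of their arrays.

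Hba-a1 lay near the top of each array, at a median of the 99.6th percentile of all probes in the hippocampus and the 99.9th in the cortex. There quantile scaling leaves few ranks above a probe, which may limit the differences it can show. Its hippocampal signal was 14.03 ± 0.409 in WT PBS, 13.93 ± 0.511 in APP/PS1 PBS, 13.15 ± 0.492 with control ASO and 12.89 ± 0.840 with CD33 ASO. Single arrays ran from 13.11 over a median of 13.93 to 14.67 in APP/PS1 PBS, from 12.13 over 13.36 to 13.73 with control ASO and from 11.10 over 13.04 to 14.00 with CD33 ASO. The lowest of these was 1 CD33 ASO array more than 1 log2 unit below the rest of its group. The WT range (13.39 to 14.89) covered nearly the same span as that of APP/PS1 PBS. In the cortex the means were 14.41 ± 0.332, 14.21 ± 0.485, 13.61 ± 0.491 and 13.49 ± 0.664 in the same order, and arrays ran from 13.32 over 14.34 to 14.71 in APP/PS1 PBS, from 12.69 over 13.61 to 14.24 with control ASO and from 12.19 over 13.45 to 14.40 with CD33 ASO.

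Hbb-bt stood at 8.06 ± 0.654 in hippocampal WT PBS, 7.96 ± 0.883 in APP/PS1 PBS, 6.24 ± 0.528 with control ASO and 6.50 ± 0.640 with CD33 ASO. Arrays ran from 7.0 over a median of 8.04 to 9.23 in APP/PS1 PBS, from 5.41 over 6.29 to 6.97 with control ASO and from 5.67 over 6.42 to 7.73 with CD33 ASO. The control ASO and PBS groups did not overlap: 11 of 11 control ASO arrays lay below all 8 PBS arrays, while 0.0938% of all hippocampal probes tested were separated downwards in this way. With CD33 ASO, 8 of 9 arrays lay below all PBS arrays (0.228% of probes were fully separated there, and 0.048% and 0.0686% in the cortex with control and CD33 ASO). Cortical Hbb-bt was 8.76 ± 0.632, 8.57 ± 0.994, 7.31 ± 0.531 and 7.27 ± 1.05 in the order above, with arrays from 7.18 over 8.49 to 9.86 in APP/PS1 PBS, from 6.51 over 7.26 to 8.19 with control ASO and from 6.11 over 6.94 to 9.07 with CD33 ASO. There 4 of 11 control ASO and 7 of 10 CD33 ASO arrays were below every PBS array. The shares above are for full separation only, and the probes with such partial separation were not counted.

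**Figure D1:**
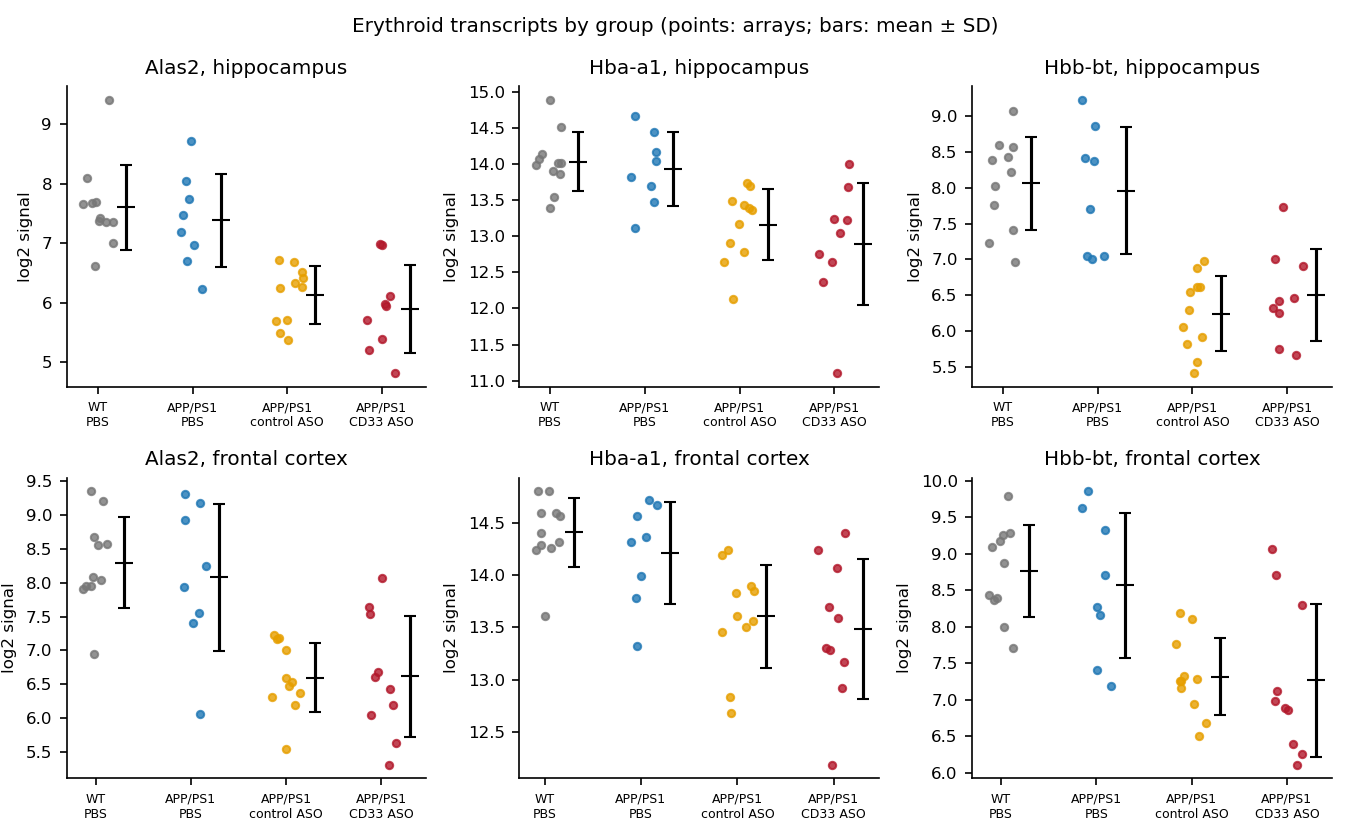
Log2 signal (vertical axes, a separate scale in each panel) of Alas2, Hba-a1 and Hbb-bt in the 4 groups of the hippocampus (top) and frontal cortex (bottom); points are arrays and bars are the mean ± SD. Both PBS groups lie above both ASO groups in mean in all 6 panels, and the ranges of control ASO and APP/PS1 PBS are apart for hippocampal Hbb-bt.

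The 3 genes were named with results of these arrays known, and are taken to have been chosen by their low signal after ASO, so the following differences from APP/PS1 PBS are descriptions without a test. For Alas2 the log2 difference of control ASO from PBS was -1.26 (SE 0.290) in the hippocampus and -1.48 (SE 0.336) in the cortex, so that its signal was 2.39-fold and 2.79-fold higher with PBS. The CD33 ASO groups, which share the PBS arrays with the control ASO comparison, gave -1.49 (SE 0.303) and -1.47 (SE 0.343). For Hba-a1 the differences were -0.77 (SE 0.243) and -0.61 (SE 0.212) with control ASO and -1.03 (SE 0.254) and -0.73 (SE 0.216) with CD33 ASO. Hbb-bt gave -1.72 (SE 0.286) and -1.25 (SE 0.342) with control ASO and -1.46 (SE 0.299) and -1.30 (SE 0.349) with CD33 ASO. All 12 differences were negative, whereas the median over all probes tested lay between -0.01 and 0.01.

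Ranked over all probes tested, Alas2 had the most negative difference of the cortex with either ASO (rank 1 of 14581), and Hbb-bt came next (rank 2). In the hippocampus, Hbb-bt ranked 2 and Alas2 ranked 10 of 14923 with control ASO, and Alas2 ranked 2 and Hbb-bt ranked 4 with CD33 ASO. Hba-a1 ranked between 13 and 32 in these 4 comparisons. Differences below -1 were counted at 17 and 13 hippocampal and 2 and 5 cortical probes with control and CD33 ASO. These counts include the members, and the 2 cortical probes with control ASO were Alas2 and Hbb-bt. Since the members are taken to have been chosen by their low signal after ASO, their ranks follow from that choice and test nothing.

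Slides were shared unevenly between these groups. In the cortex, 5 slides held both control ASO and PBS arrays and 4 held both CD33 ASO and PBS arrays, and all 3 genes were lower with ASO on each of them, Alas2 by -2.74 to -0.38 with control ASO and by -1.71 to -1.01 with CD33 ASO. In the hippocampus, only 2 slides held both control ASO and PBS arrays, with 3 of the 8 PBS arrays on them. Within these 2 slides Alas2 differed by -0.72 and -0.01, Hbb-bt by -0.67 and -0.29, and Hba-a1 by -0.53 and 0.29. With CD33 ASO, 4 hippocampal slides gave differences from -3.17 to 0.00 for Alas2, from -2.77 to -0.10 for Hbb-bt and from -3.20 to 0.31 for Hba-a1, and the most negative of each came from a single CD33 ASO array, that of the animal collected after 16 days described further on.

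A fit with slide as a block, in which all 4 groups link the slides, gave hippocampal log2 differences of control ASO from PBS of -1.27 for Alas2, -0.77 for Hba-a1 and -1.31 for Hbb-bt. The same fit gave -1.41, -1.02 and -1.29 with CD33 ASO. In the cortex it gave -1.42, -0.57 and -1.20 with control ASO and -1.44, -0.70 and -1.38 with CD33 ASO. Surgery was done in 3 sessions. Cortical Alas2, centred on its group means, averaged 0.12, 0.18 and -0.35 in sessions 1, 2 and 3. In the hippocampus it averaged 0.16, 0.00 and -0.18. Session 3 was also the lowest for both globins in both tissues, and the effect of session was not tested.

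**Figure D2:**
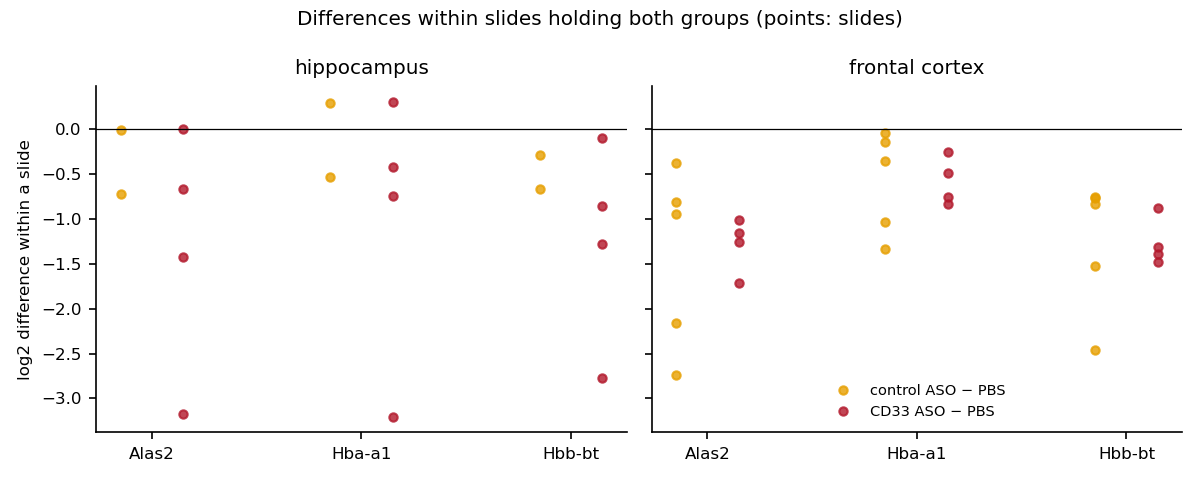
Log2 difference of each ASO group from APP/PS1 PBS within a slide (vertical axis) for the 3 genes, with 1 point for each slide that held both groups, in the hippocampus (left) and the frontal cortex (right). All cortical points lie below 0, and the hippocampal points reach from -3.20 to 0.31.

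The 4 animals collected on days other than day 17 did not all lie low in their groups. An APP/PS1 PBS animal collected 14 days after surgery had the lowest Alas2 and Hba-a1 of its group in both tissues, with Alas2 at 6.23 and 6.06. A CD33 ASO animal collected after 16 days, one of the 4 with low Thy1, had the lowest signal of its group for all 3 genes in both tissues, with Hba-a1 at 11.10 and 12.19. In contrast, the CD33 ASO animal collected after 13 days that gave both tissues was among the highest of its group, with Alas2 ranked 8 of 9 and Hba-a1 ranked 9 of 9 from the lowest in the hippocampus. Most animals of low Thy1 lay low for Alas2. A control ASO animal among them had the highest Alas2 of its 11 in both tissues, at 6.72 and 7.22. Another control ASO animal ranked 3 of 11 from the lowest in both tissues. A CD33 ASO animal with cortex only, collected after 13 days, ranked 3 of 10. Without the 4 animals collected on other days, Alas2 differed from PBS by -1.42 and -1.65 in the hippocampus and by -1.77 and -1.62 in the cortex with control and CD33 ASO. Without the 4 animals of low Thy1 it differed by -1.27 and -1.35, and by -1.52 and -1.23. Hba-a1 then differed with CD33 ASO by -0.81 in the hippocampus and -0.54 in the cortex, and Hbb-bt by -1.36 and -1.05. With all animals these were -1.03, -0.73, -1.46 and -1.30. With control ASO the values without them were -0.75 and -0.63 for Hba-a1 and -1.70 and -1.32 for Hbb-bt.

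Genotype and the target of the ASO were compared by limma, whose adjusted p covers all probes of a tissue. In neither did any of the 3 genes pass an adjusted p of 0.05. APP/PS1 PBS minus WT PBS was -0.22 for Alas2 in the hippocampus (95% interval -0.81 to 0.36, adjusted p = 0.909) and -0.22 in the cortex (-0.90 to 0.46, adjusted p = 0.826). The globin differences lay between -0.19 and -0.10, with adjusted p from 0.731 to 0.967. Within slides that held both groups, Alas2 differed by -0.22 to 0.35 in the hippocampus (3 slides) and by -0.75 to 0.54 in the cortex (5 slides). In this comparison 0.952% of hippocampal and 4.18% of cortical probes were called.

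Between the 2 oligonucleotides, CD33 ASO minus control ASO was -0.23 for Alas2 in the hippocampus (95% interval -0.80 to 0.33, adjusted p = 0.708) and 0.02 in the cortex (-0.62 to 0.65, adjusted p = 0.995). Hba-a1 gave -0.26 (-0.74 to 0.21, adjusted p = 0.585) and -0.12 (-0.52 to 0.28, adjusted p = 0.893), and Hbb-bt gave 0.26 (-0.30 to 0.82, adjusted p = 0.666) and -0.05 (-0.69 to 0.60, adjusted p = 0.983). Within slides that held both groups, Alas2 differed by -0.65 to 0.72 in the hippocampus (3 slides) and by -0.88 to 0.44 in the cortex (4 slides). Of all probes tested, 3.53% in the hippocampus and 0.322% in the cortex were called in this comparison. These intervals are as wide as several of the differences from PBS, so that a smaller difference between the oligonucleotides was not detectable with these numbers of arrays.

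Alas2 varied with the globins from array to array within the groups. With each array centred on its group mean, Pearson's r of Alas2 with Hba-a1 was 0.885 in the hippocampus (n = 39 arrays) and 0.899 in the cortex (n = 40), and Spearman's rho was 0.922 and 0.943. Alas2 and Hbb-bt gave r of 0.810 and 0.837 and rho of 0.781 and 0.829, and the 2 globins gave r of 0.762 and 0.807 and rho of 0.794 and 0.804. Every one of these values, and those between tissues given further on, had a two-sided permutation p of 1e-05 with labels permuted within groups, the smallest that 100000 resamples can give, and 1e-05 after Benjamini-Hochberg adjustment over the 9 relations. Without the 2 arrays farthest from the globin's median, r of Alas2 with Hba-a1 was 0.916 and 0.930, and with Hbb-bt 0.776 and 0.813.

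The relation was seen inside single groups as well. Over the 8 combinations of group and tissue, r of Alas2 with Hba-a1 ran from 0.853 to 0.991, and all 8 passed an adjusted p of 0.05 in exact or 100000-resample permutation tests over 36 such relations. In hippocampal APP/PS1 PBS mice the 2 genes ranked the 8 arrays in the same order (rho of 1, exact permutation p = 4.96e-05, adjusted p = 0.00054). For Alas2 with Hbb-bt, r ran from 0.568 to 0.912, and the one that did not pass was cortical control ASO (permutation p = 0.0693, adjusted p = 0.0713). The same group was the exception for Hba-a1 with Hbb-bt, where r ran from 0.594 to 0.913 (permutation p = 0.0525, adjusted p = 0.0556). Within the 5 slides of a tissue, r of the group-centred Alas2 with Hba-a1 lay between 0.903 and 0.930 in the hippocampus and between 0.862 and 0.976 in the cortex. Along the fitted lines, Alas2 differed by 1.05 log2 units per unit of Hba-a1 in the hippocampus and by 1.42 in the cortex, and by 0.82 per unit of Hbb-bt in both.

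**Figure D3:**
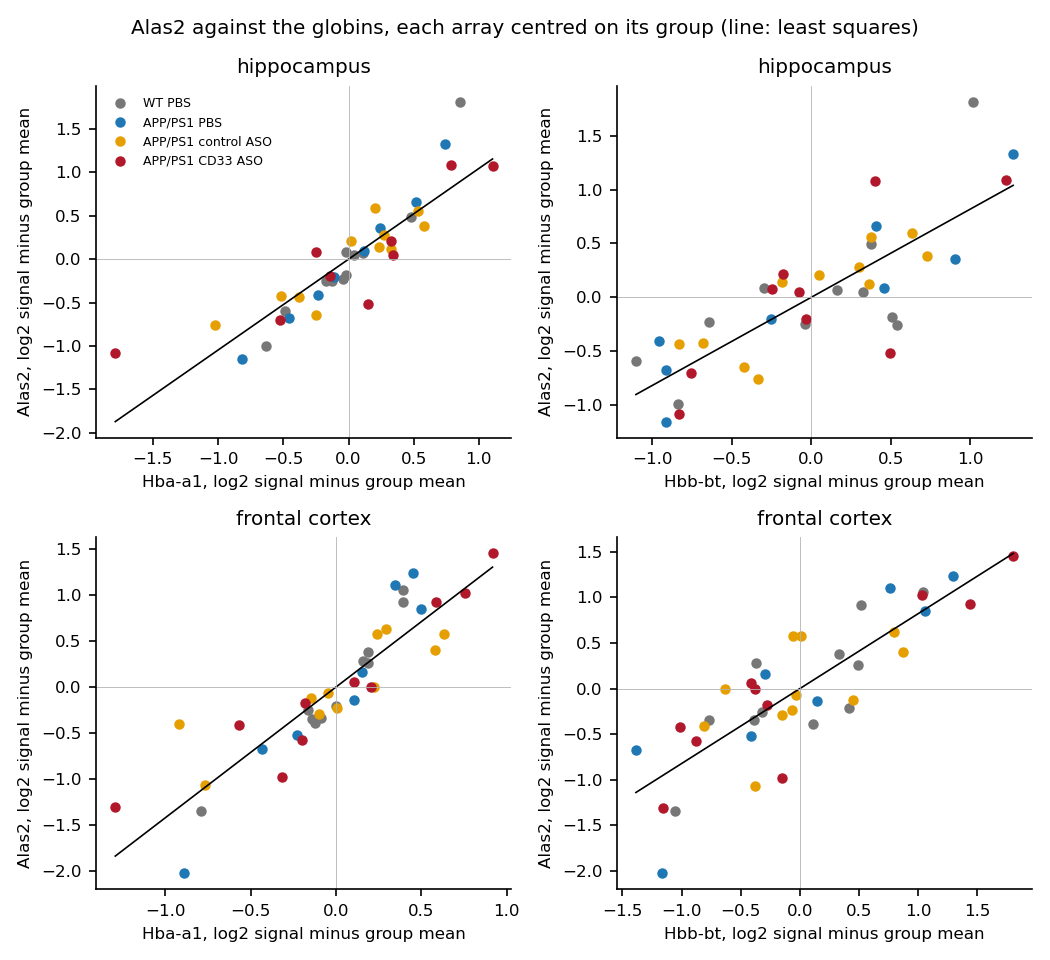
Alas2 (vertical axis) against Hba-a1 (left) and Hbb-bt (right), log2 signal minus the group mean, in the hippocampus (top) and the frontal cortex (bottom); each point is an array, coloured by group, and the line is a least-squares fit. Points of all 4 groups lie along the lines, with r of 0.885 and 0.810 above and 0.899 and 0.837 below.

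With the mean of both globin probes as a covariate, little of the difference in Alas2 between ASO and PBS was left in the hippocampus: it was 0.04 (SE 0.170) with control ASO and -0.19 (SE 0.175) with CD33 ASO. In the cortex it was -0.41 (SE 0.171) and -0.30 (SE 0.177). The covariate was itself low after ASO, so these values describe how far Alas2 and the globins went together and test nothing.

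The same animals were high or low in both tissues. Over the 39 animals with both, centred on the group means of each tissue, hippocampal and cortical Alas2 gave r of 0.845 and rho of 0.852, Hba-a1 gave 0.865 and 0.826, and Hbb-bt gave 0.704 and 0.695. Leaving out the 2 animals farthest from the hippocampal median gave r of 0.863, 0.803 and 0.698. Within the 4 groups, r of Alas2 ran from 0.743 to 0.915 and r of Hba-a1 from 0.809 to 0.904, and all 8 passed an adjusted p of 0.05 in exact or 100000-resample permutation tests. For Hbb-bt it ran from 0.388 in WT PBS (n = 11, permutation p = 0.239) to 0.872 in APP/PS1 PBS. Hippocampus and cortex of an animal were hybridised on different slides.

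The cortex gave the higher signal in most animals. Its excess over the hippocampus of the same animal was 0.65 ± 0.427 (log2, SD, n = 39) for Alas2, 0.43 ± 0.300 for Hba-a1 and 0.82 ± 0.587 for Hbb-bt, and the cortex was higher in 36, 36 and 38 of 39 animals. Since each tissue had slides of its own, tissue and slide cannot be told apart here. The differences between groups were also set against each other across tissues in a limma fit with animal as a random block. This fit used 1 consensus correlation over all probes (0.0801), well below the r of 0.845, 0.865 and 0.704 of these genes. It thus made little use of the link between an animal's tissues, so its SE are wide for these genes and differences between tissues could be missed. Cortex minus hippocampus of the ASO differences from PBS ranged from -0.23 (SE 0.430, Alas2 with control ASO) to 0.46 (SE 0.436, Hbb-bt with control ASO), given as descriptions. For genotype and for CD33 ASO against control ASO, the adjusted p of this difference between tissues lay between 0.867 and 0.999 for the 3 genes, while 0.32% and 0.00654% of 15290 probes were called.

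**Figure D4:**
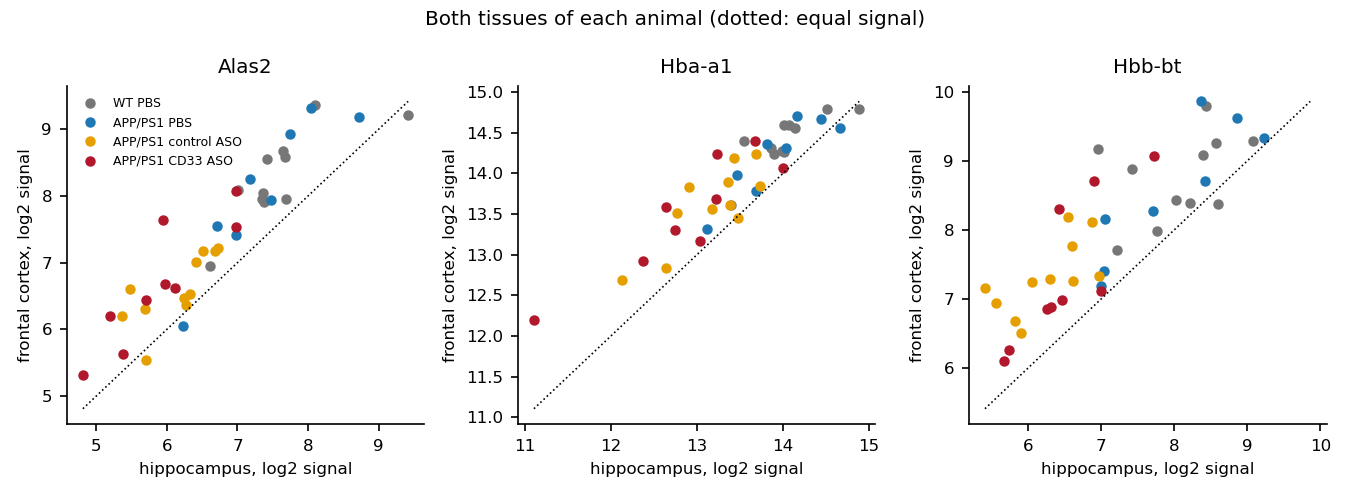
Log2 signal in the frontal cortex (vertical axis) against that in the hippocampus (horizontal axis) for Alas2, Hba-a1 and Hbb-bt; each point is 1 of 39 animals, coloured by group, and the dotted line marks equal signal. Most points lie above the line, and animals low in one tissue are low in the other, with group-centred r of 0.845, 0.865 and 0.704.

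Other genes of the red cell programme were also compared. Lists of globins, haem synthesis, red cell membrane, red cell metabolism and maturation, and erythroid transcription factors held 73 further genes, of which 50 had a probe, and 36 hippocampal and 34 cortical ones passed the detection filter. With control ASO 4 of 36 fell and 0 rose in the hippocampus, which is 11.1% of the list against 11.4% of all probes called (5.73% higher and 5.65% lower), and with CD33 ASO 3 fell and 1 rose (11.1% against 4.96%, with 3.02% higher and 1.94% lower). With slide as a block, the hippocampal control ASO comparison had 0 of 36 called and 0.811% of all probes (121 in place of 1698). In the cortex limma called 0 of 34 with control ASO (5 had an unadjusted p under 0.05, and 0.926% of all probes were called, 0.363% higher and 0.562% lower), and with CD33 ASO 1 fell and 1 rose (5.88% against 1.49% of all probes, 0.686% higher and 0.802% lower). The median difference of the listed genes lay between -0.04 and 0.01, near the medians of all probes. Of 5 further globins with a probe, 1 was tested in the hippocampus and 0 in the cortex. All 10 further haem synthesis genes with a probe were tested in both tissues. The median and the shares called thus rest mostly on genes other than globins, and do not show how red cell transcripts as a whole differed. Between genotypes, limma called 0 of 36 in the hippocampus (2 had an unadjusted p under 0.05), and in the cortex Lmo2, a bridging protein of the GATA complex, rose by 0.47 in APP/PS1 mice (limma adjusted p = 0.00171). With CD33 ASO against control ASO, Ppox of haem synthesis fell by 0.21 and Fbxo7 rose by 0.35 in the hippocampus (limma adjusted p = 0.0438 and 0.0348, and 0.247 and 0.605 with slide as a block), and limma called 0 of 34 in the cortex (5 had an unadjusted p under 0.05).

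Slc4a1, the anion exchanger band 3 of the red cell membrane, was the listed gene with the lowest difference in all 4 comparisons. It fell in the hippocampus by 0.53 on the log2 scale with control ASO (SE 0.164, limma adjusted p = 0.0292) and by 0.61 with CD33 ASO (SE 0.171, limma adjusted p = 0.0265). With slide as a block neither hippocampal difference passed (-0.51, adjusted p = 0.257, and -0.54, adjusted p = 0.0703), and the cortical differences of -0.76 and -0.54 did not pass either (limma adjusted p = 0.0966 and 0.267). Its hippocampal signal was 5.44 ± 0.427 in WT PBS (n = 11), 5.37 ± 0.488 in APP/PS1 PBS (n = 8), 4.84 ± 0.301 with control ASO (n = 11) and 4.76 ± 0.220 with CD33 ASO (n = 9), close to background: it was detected on 11, 6, 3 and 1 of these arrays.

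Among the haem synthesis genes, Alas1, the form of the first enzyme used outside the red cell lineage, gave -0.11 (SE 0.046, limma adjusted p = 0.122) and -0.01 in the hippocampus and -0.01 and -0.05 in the cortex with control and CD33 ASO. Alad, the enzyme of the next step, fell by 0.27 with control ASO in the hippocampus (limma adjusted p = 0.00681), but with slide as a block gave -0.10 (adjusted p = 0.540), and Slc25a38, a mitochondrial carrier that brings in glycine, rose by 0.18 with CD33 ASO (limma adjusted p = 0.0173). Fech, which inserts the iron, gave between -0.20 and 0.01 and did not pass in any of the 4 comparisons. Of the maturation genes, Car2, a carbonic anhydrase that brain glia also express, fell by 0.41 with control ASO (limma adjusted p = 0.0224, and 0.290 with slide as a block), and Tfrc, the transferrin receptor, fell by 0.28 with CD33 ASO (limma adjusted p = 0.0111), both in the hippocampus. With median centring of the arrays, Tfrc, Slc25a38 and Alad did not pass (adjusted p = 0.198, 0.114 and 0.132).

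Of the transcription factors, Ldb1, a cofactor that joins GATA factors to distant enhancers, fell by 0.14 and 0.23 in the hippocampus with control and CD33 ASO and by 0.13 in the cortex with CD33 ASO (limma adjusted p = 0.0411, 0.00124 and 0.0283). With slide as a block the first of these did not pass (adjusted p = 0.279). With median centring none of them passed (-0.02, -0.20 and -0.19, limma adjusted p = 0.896, 0.0929 and 0.137). Without a filter the first and the cortical one did not pass either. The first was also lost in the authors' values, and the cortical one without animals of other collection days. Nfe2l2, a regulator of the response to oxidative stress, rose by 0.46 in the cortex with CD33 ASO (limma adjusted p = 0.0408), and passed in 4 of 12 alternatives, with an adjusted p of up to 0.237. Klf1, a factor that activates globin genes, was detected on 11 hippocampal and 12 cortical arrays, and gave between -0.14 and -0.09 without passing. Of the other globins on the arrays, Hbq1b was tested in the hippocampus only (0.08 and 0.07, limma adjusted p = 0.677 and 0.826), and the probe annotated to Hbb-b2 was detected on 4 hippocampal and 6 cortical arrays. Ngb and Cygb, globins made by neurons and by fibroblast-like cells, gave 0.02 and -0.01 in the hippocampus with control ASO, and 0 of 2 passed in any of the 4 comparisons (limma, adjusted p from 0.526 to 0.955).

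**Figure D5:**
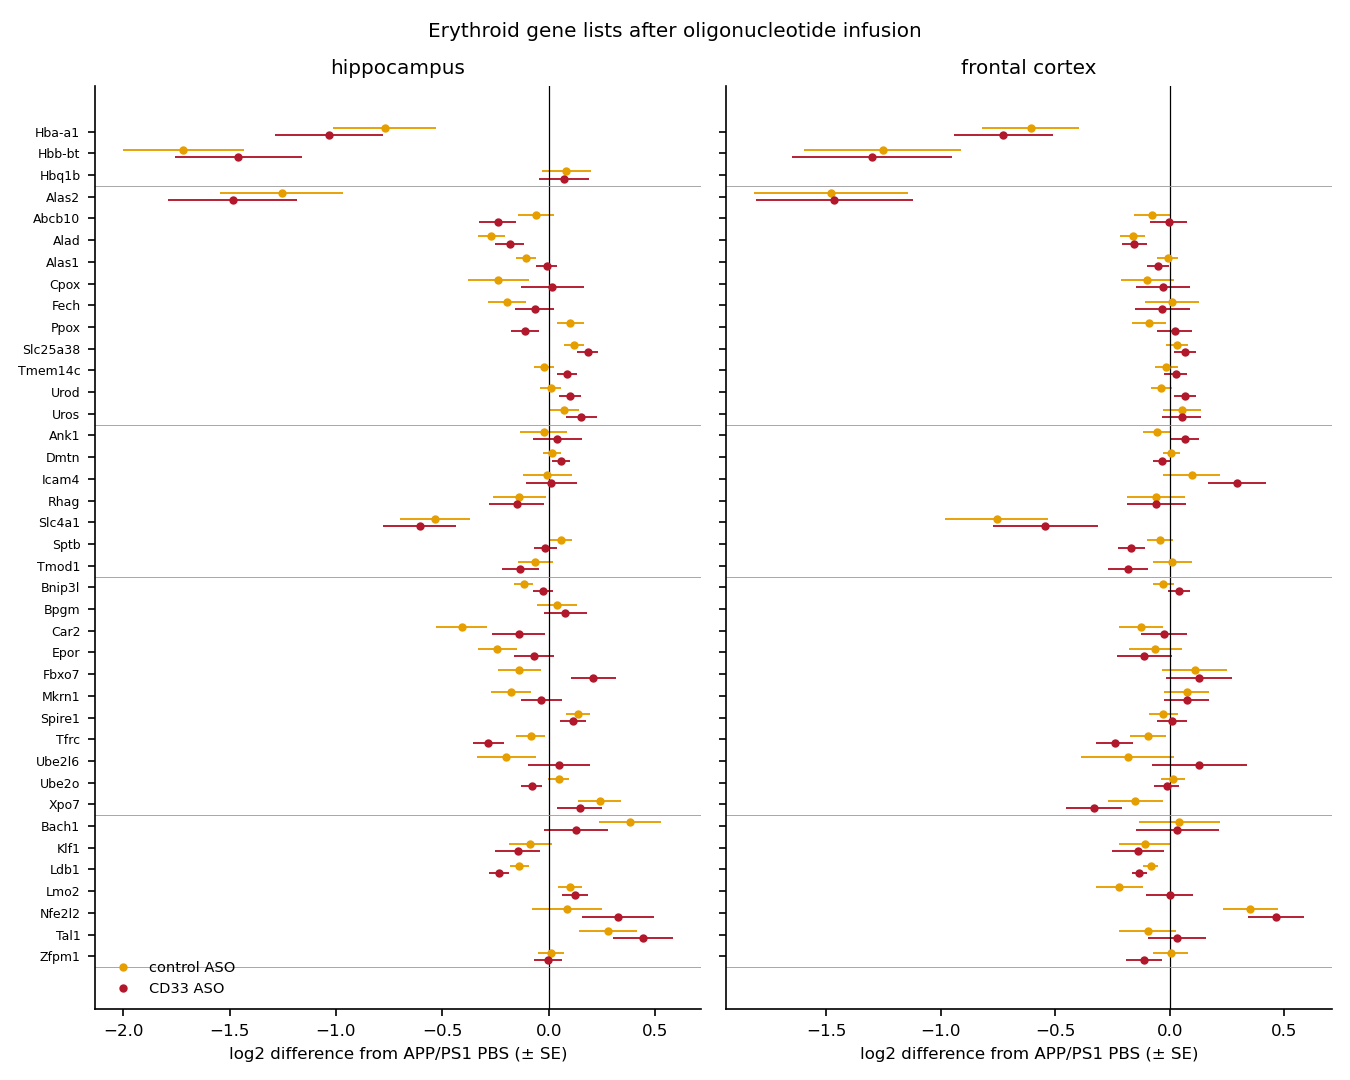
Log2 difference of control ASO and CD33 ASO from APP/PS1 PBS (horizontal axes, point and SE from limma) for every tested gene of 5 erythroid lists, separated by grey lines, in the hippocampus (left) and the frontal cortex (right). Alas2, Hba-a1 and Hbb-bt lie between -1.72 and -0.61, Slc4a1 between -0.76 and -0.53, and the other genes closer to 0.

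Genes that take up or break down haem and haemoglobin, and carriers and stores of iron, were also examined. With control and CD33 ASO, 11.4% and 4.96% of all probes tested were called in the hippocampus, and 0.926% and 1.49% in the cortex. Of 9 tested clearance genes, 0 passed in either tissue with either ASO (limma), and the ferritin subunit Fth1 gave -0.06 and 0.03 in the hippocampus with control and CD33 ASO. Of 6 tested genes with an iron-responsive element other than Alas2, Epas1, a hypoxia-inducible factor, rose by 0.32 with control ASO in the hippocampus (limma adjusted p = 0.00321, and 0.220 with slide as a block), and Tfrc fell with CD33 ASO as given above.

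Markers of other cells were compared in the same fits. With control and CD33 ASO, 11.4% and 4.96% of all probes tested were called in the hippocampus, and 0.926% and 1.49% in the cortex. The platelet list had 5 tested genes in the hippocampus, with Itga2b higher and Gp5 lower with control ASO (limma adjusted p = 0.123 and 0.237 with slide as a block) and Itga2b higher with CD33 ASO, and 8 in the cortex with 0 called by limma. Few neutrophil and lymphocyte markers were above background (2 of 9 and 2 of 7 in the hippocampus, 3 and 2 in the cortex), and 0 of them were called. The endothelial list had a median difference between 0.00 and 0.10 in the 4 comparisons. With 11 genes tested in each of the 4, there were 3 calls in all. Slc2a1 was higher in the hippocampus and Ly6c1 higher in the cortex with control ASO (limma adjusted p = 0.289 and 0.0717 with slide as a block). Vwf was lower in the cortex with CD33 ASO. The endothelial list also had overlapping levels. Its summed intensity had hippocampal medians of 7942 in APP/PS1 PBS, 8838 with control ASO and 8047 with CD33 ASO.

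Markers of choroid plexus and oligodendrocytes were examined as well. All 8 choroid plexus markers tested in the hippocampus had negative differences (medians -1.07 with control ASO and -0.72 with CD33 ASO), 0 of 8 passed, and all 8 were detected. Their summed intensity ran from 8906 over a median of 29581 to 38355 in APP/PS1 PBS, from 2830 over 11017 to 36136 with control ASO and from 3101 over 24113 to 35864 with CD33 ASO, and it also ran from 3821 to 38946 in WT PBS. The 4 choroid plexus markers tested in the cortex had medians of -0.07 and -0.03. Of 6 oligodendrocyte markers, 3 fell with control ASO and 5 with CD33 ASO in each tissue, and all 6 were detected. Of all probes tested, 5.65% and 1.94% were called lower in the hippocampus and 0.562% and 0.802% in the cortex, in the same order. With slide as a block, Opalin passed with control ASO in the hippocampus (adjusted p = 0.00388) while Mag and Cnp did not (0.191 and 0.271). In the cortex, Opalin and Cnp passed with control ASO in that fit (limma adjusted p = 0.0003 and 0.00655) and Mag did not (0.0888). Cortical Mbp with CD33 ASO passed in 6 of 12 alternatives. The summed intensity of the 6 oligodendrocyte markers in the hippocampus ran from 20571 to 35992 in APP/PS1 PBS. It ran from 22090 to 33905 with control ASO and from 20653 to 30345 with CD33 ASO. In the cortex it ran from 21126 to 30334, 21572 to 29440 and 13611 to 26491 in this order. The part of these cells in the low erythroid signals was not tested.

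The genes whose group-centred signal went most with Alas2, ranked by the lower r of the 2 tissues among 13411 probes, were Hba-a1, Hbb-bt and then Slc4a1 (r of 0.627 in the hippocampus, n = 39, and 0.582 in the cortex, n = 40). Only 0.0224% of the probes had an r above 0.5 in both tissues, which is these 3. After them came the laminin chain Lamc3 (0.470 and 0.570), vitronectin, Vtn (0.467 and 0.552), Uaca (0.463 and 0.522), the cystine transporter Slc7a11 (0.461 and 0.522), Mrgprf (0.455 and 0.612), fibromodulin, Fmod (0.452 and 0.524), and the organic anion transporter Slc22a6 (0.448 and 0.476). These 7 genes did not pass in either ASO comparison in either tissue (limma adjusted p from 0.126 to 0.999). For Hba-a1, Lamc3 (0.542 and 0.528), Vtn (0.560 and 0.512), Uaca (0.511 and 0.569), Slc7a11, Hspg2, Slc25a1, Pltp and Fmod followed Alas2 and Hbb-bt. For Hbb-bt, Slc4a1 (0.573 and 0.677) came next, followed by 1810009A15Rik (0.559 and 0.593), Cpq, H2bc4, Fzd6, Ltbp4, Slc7a10 and Timp3. In the hippocampus Slc7a10, an amino acid transporter, fell by 0.62 with control ASO and by 0.59 with CD33 ASO (limma adjusted p = 0.0101 and 0.0252), 1810009A15Rik fell by 0.50 and H2bc4 by 0.37 with control ASO (limma adjusted p = 0.00252 and 0.0454), and Ltbp4 fell by 0.32 with CD33 ASO (limma adjusted p = 0.00563). With slide as a block the control ASO differences of Slc7a10, 1810009A15Rik and H2bc4 did not pass (adjusted p = 0.559, 0.350 and 0.857). With CD33 ASO, Ltbp4 did not pass with median centring (limma adjusted p = 0.0608). Slc7a10 did not pass there without animals of other collection days (limma adjusted p = 0.0506). In the cortex Slc25a1, the mitochondrial citrate carrier, fell by 0.31 with CD33 ASO (limma adjusted p = 0.0200) and rose by 0.25 in APP/PS1 against WT mice given PBS (limma adjusted p = 0.0369). The first did not pass without animals of other collection days (limma adjusted p = 0.0757). The second did not pass with median centring (limma adjusted p = 0.273), without a filter or with array weights.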

How the data were processed

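Total RNA of hippocampus and frontal cortex was measured on Illumina MouseRef-8 bead arrays. Per the file headers, the deposited signal table gives 1 intensity and 1 detection p-value for each of 25697 probes and 79 arrays, with 0 sample columns unused here. The deposited intensities were background-subtracted within arrays (21.8% to 26.3% of values lay below 0) and not normalized between arrays. The authors' log2 table of 18960 probes was used as an alternative. BeadStudio, GenomeStudio and Partek are listed in the submitters' processing notes, with versions not given in the sources used here.

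In R 4.3.3 with limma 3.58.1, the neqc steps (offset 16, quantile) were run on all arrays. Probes with detection p under 0.05 on at least 8 arrays of a tissue were tested (14923 hippocampal, 14581 cortical) in 1 model of 4 groups per tissue (lmFit, eBayes with trend), with Benjamini-Hochberg adjustment over these probes. An adjusted p under 0.05 was called. The difference between tissues used duplicateCorrelation (consensus 0.0801) over 15290 probes. Each gene was represented by its probe with the highest mean. Correlations and permutation tests used Python 3.11.15 with numpy. Steps were tested on simulated data.

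The members and lists were chosen with earlier results of these data known. Named were the 3 members throughout, called list genes (up to 4 of a list, by size) or otherwise those with the highest means, Fech, Klf1, Hbq1b and Hbb-b2 (chosen for their role after their values were seen), the 10 probes most like each member, and Thy1 and Cd33. Animals are replicates. The number of arrays limits the precision. Alternatives covered background, scaling, filter, slide, session, replicate number, weights, collection day, low Thy1, single arrays and the authors' values.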

Additional observations from a re-analysis of the deposited data

Results flagged for a closer look

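Of 12 sets of 4 to 10 arrays (3 genes in the 4 groups of that size), 0 held an array that Dixon's test at the 95% level sets apart. WT PBS and control ASO, with 11 arrays in each tissue, were not tested in this way, so an outlying array there would not have been flagged. Of 6 differences between the tissues that were tested, limma called 0 (the 3 genes in the genotype and CD33 ASO against control ASO comparisons, 0 also at an unadjusted p under 0.05). That fit made little use of the link between an animal's tissues for these genes, as given above.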

How the results depend on the processing

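All 12 differences of the 3 genes between an ASO and PBS kept their sign under 12 alternatives each, between -1.98 and -0.54, and with each array left out in turn, between -1.85 and -0.52. The exception was Alas2 with the globin covariate. With control and CD33 ASO it was 0.043 and -0.19 in the hippocampus and -0.41 and -0.30 in the cortex. That covariate was low after ASO and also went with Alas2 within the groups. All 9 correlations kept their sign and stayed past the threshold under 6 alternatives each, between 0.688 and 0.931.

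Small differences that did not pass in any fit changed sign, and the cause was not tested. With array weights, hippocampal Hbb-bt gave 0.053 for genotype and cortical Hbb-bt 0.10 for CD33 ASO minus control ASO. Without animals of other collection days, genotype gave 0.013 (Hba-a1), 0.031 (Hbb-bt) and 0.029 (Slc4a1) in the hippocampus and 0.070 (Alas2) in the cortex, and cortical CD33 ASO minus control ASO gave 0.011 (Hba-a1) and 0.038 (Hbb-bt). Without low-Thy1 animals the latter gave 0.089 and 0.28. Cortical Alas2 in that comparison gave -0.021 without background correction, -0.029 with median centring and -0.017 with slide as a block. Genotype gave 0.0022 for cortical Alas2 with the globin covariate and -0.0053 for its difference between tissues with median centring, and hippocampal Slc4a1 gave 0.63 for CD33 ASO minus control ASO without background correction. With single arrays left out, genotype ran from -0.21 to 0.013 (Hba-a1), -0.28 to 0.038 (Hbb-bt) and -0.18 to 0.035 (Slc4a1) in the hippocampus and from -0.40 to 0.070 (Alas2) and -0.38 to 0.0047 (Hbb-bt) in the cortex. Cortical CD33 ASO minus control ASO ran from -0.15 to 0.16 (Alas2), -0.22 to 0.024 (Hba-a1) and -0.25 to 0.082 (Hbb-bt).

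The 4 hippocampal calls of other erythroid genes with control ASO became 2 with median centring, 0 with slide as a block and 7 with array weights (2 to 5 with single arrays left out), and the 4 with CD33 ASO became 1 with median centring. In the cortex, 0 with control ASO became 1 without animals of other collection days. The 2 with CD33 ASO became 0 with median centring or no filter, and 1 without background correction, in the authors' values, with the replicate block, with array weights or without animals of other collection days (0 to 2 with single arrays left out). Slc4a1 in the hippocampus lost its call in 5 (control ASO) and 6 (CD33 ASO) fits without 1 array, with differences from -0.64 to -0.43 and -0.71 to -0.50 over all such fits. Without background correction these differences were -3.76 and -3.13 and did not pass (limma adjusted p = 0.124 and 0.374), and cortical Slc4a1 passed with control ASO without animals of other collection days (-0.87, limma adjusted p = 0.0430). With slide as a block, calls over all hippocampal probes went from 1698 to 121 for control ASO against PBS and from 527 to 113 between the oligonucleotides. The cause was not tested.

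The replicate numbers of the titles did not pair samples: correlations of same-numbered deviations ran from -0.241 to 0.415. With the replicate block, Alas2 differed from PBS by -1.24 and -1.49 in the hippocampus and -1.44 and -1.42 in the cortex, and it changed no call of the 3 genes. Dim probes such as Slc4a1 limit the size of what these arrays show, and the few ranks above Hba-a1 may do so. Over the 12 alternatives, among them median centring without quantile scaling, hippocampal Hba-a1 ran from -0.89 to -0.62 with control ASO. It ran from -1.13 to -0.81 with CD33 ASO, and in the cortex from -0.74 to -0.55 and from -0.76 to -0.54. The differences in the main fit were -0.77, -1.03, -0.61 and -0.73 in this order.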
